A study of Homo sapiens with 96 samples.

Results

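Gallic acid and benzoic acid are small aromatic acids, and they were tested here on A549 cells as a structural pair. Both carry 1 carboxyl group on 1 aromatic ring. Gallic acid has 3 hydroxyl groups on that ring and benzoic acid has 0. The pair was chosen by its library labels, as all libraries of either compound at matched doses of 10, 2 and 0.4 µM, which gave 18 of the 96 libraries in the series (9 per compound, 3 per dose). A549 is an established human lung adenocarcinoma line, and the series profiled it by RNA sequencing after ingredients and extracts of Paeoniae Radix, the peony root of East Asian medicine. Every library of the pair, and the 3 vehicle libraries it is set beside, belonged to the second of 2 labelled batches, which held 75 libraries: vehicle and 8 ingredients at 3 doses each. No genetic change or second agent is named for any group. The labels used here state neither the exposure time nor the vehicle. The labels number the replicates of a group from 1 to 3 without saying that they were separate cultures, so each p-value measures the spread between libraries, which may be technical. Library codes of gallic acid begin with 7, as do those of catechin, and codes of benzoic acid begin with 6, as do those of albiflorin. What the digit stands for is not given, so within the pair the digit and the compound cannot be told apart.

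Benzoic acid is a weak acid best known as a food preservative, and animal cells conjugate it to glycine through its coenzyme A ester. Gallic acid is a plant phenol whose adjacent ring hydroxyl groups let it donate electrons, bind iron and oxidise in culture medium, a reaction that yields hydrogen peroxide. Cells meet oxidants through the transcription factor NRF2, which is held in check by KEAP1, and they meet misfolded protein in the endoplasmic reticulum through the unfolded protein response, whose sensors ATF6, IRE1 and PERK switch on chaperone genes. A549 cells carry an inactive KEAP1, so many NRF2 targets are already high in them.

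Some libraries stood apart, and this bears on the values that follow. Total counts ran from 15.68 to 28.8 M (median 20.97 M) with gallic acid, from 20.4 to 26.6 M (median 23.5 M) with benzoic acid and from 24.2 to 25.3 M with vehicle. The share of counts on mitochondrially encoded genes at 10 µM was 2.40%, 18.9% and 3.25% in gallic acid replicates 1, 2 and 3, and 15%, 14.9% and 15.4% with benzoic acid. At 2 µM it was 1.87%, 7.38% and 12.7% against 13.2%, 13.5% and 3.09%, and at 0.4 µM 7.01%, 13.7% and 9.96% against 13.1%, 15.3% and 14.6%. So 3 of the 9 gallic acid libraries and 1 of the 9 benzoic acid libraries lay under 5%, as did 16 of the 75 libraries of the batch. An exact two-sided permutation test of this share gave p = 0.4, 0.5 and 0.2 at 10, 2 and 0.4 µM, and 3 libraries against 3 allow no p under 0.1. Over the 3 doses together the mean share with gallic acid minus that with benzoic acid was −4.55 percentage points (exact permutation within doses, 8000 arrangements, two-sided p = 0.0768). In replicate 1 of gallic acid at 2 and at 0.4 µM, COL1A2, a fibrillar collagen chain, stood at 606 and 527 CPM (counts per gene scaled to library size), against at most 0.366 CPM in the other 16 libraries. Of 14 fibroblast markers, 7 were above those 16 libraries in both of these libraries. The summed level of the list was 1386 and 1243 CPM there, and 154.5 to 298.8 CPM in the others. PRRX1, a mesenchymal transcription factor, stood at 32.7 and 27.9 CPM in them, whereas POSTN and PDGFRB stayed at or under 0.302 CPM. DCN was above the other 16 libraries but low, at 0.39 and 0.453 CPM against at most 0.272 CPM. The A549 keratins KRT8 and KRT18 ran from 2852 to 6332 and from 2195 to 4863 CPM over the 18 libraries, and CDKN2A, which this line has lost, had 0 to 2 counts. In RNA from whole cultures, fewer cells of a type and less RNA per cell cannot be told apart.

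**Figure D1:**
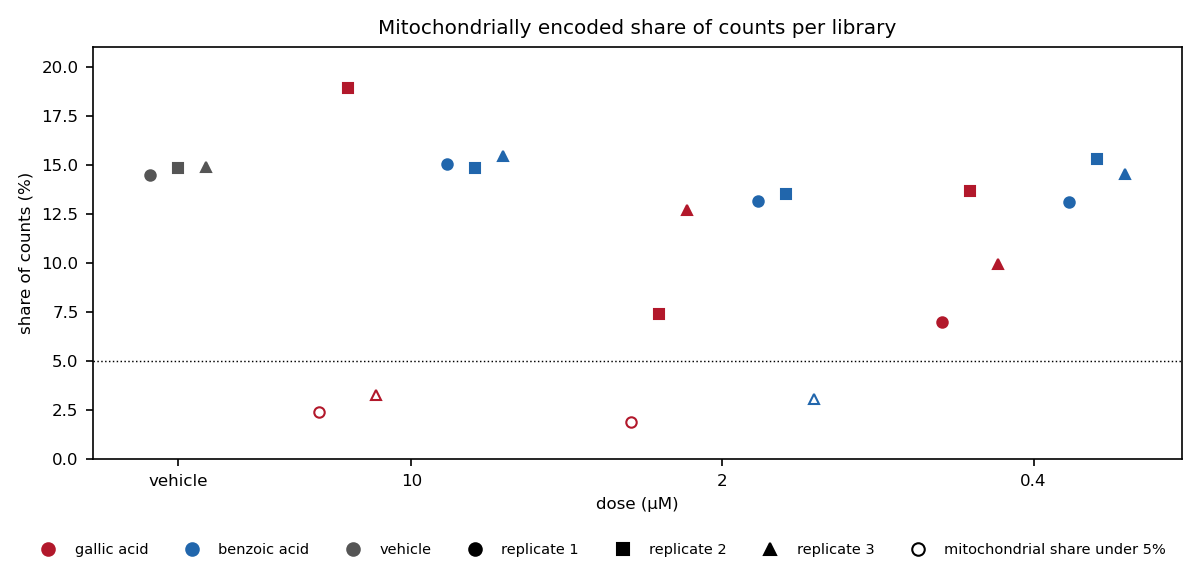
Share of counts on mitochondrially encoded genes (percent) in each library, by dose (µM) and compound, with 1 symbol per library and a dotted line at 5%. Gallic acid replicates 1 and 3 at 10 µM lie under 5% and replicate 2 at 18.9%, above the 3 benzoic acid libraries at 14.9% to 15.4%.

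More genes differed between the compounds at 10 µM than at 2 or 0.4 µM when all libraries of the batch were fitted. Of 18324 genes tested with edgeR's quasi-likelihood test, adjusted over the genes and the 3 pair comparisons together, 382 genes (2.08% of those tested) differed at 10 µM. With gallic acid 257 of them were higher (1.4%) and 125 lower (0.682%), and 90 differed at least 2-fold. At 2 µM 14 genes differed (0.0764%), 10 higher and 4 lower with gallic acid. At 0.4 µM 7 differed (0.0382%), 6 higher and 1 lower. At an unadjusted p under 0.05 the counts were 5730, 1551 and 873. The median log2 difference over all genes was 0.012, −0.003 and 0.005 at the 3 doses. Adjusted within each dose alone, edgeR called 1594 genes at 10 µM and 0 at either lower dose, where DESeq2 called 64 and 47 under the joint adjustment. Leaving out 1 library moved the count at 10 µM to between 25 (without gallic acid replicate 1) and 4484 (without gallic acid replicate 2). Fitted on the 18 libraries of the pair alone, edgeR called 4, 0 and 0 genes at 10, 2 and 0.4 µM. Without the batch's libraries under a mitochondrial share of 5%, edgeR called 15 genes at 2 µM and 99 at 0.4 µM. At 0.4 µM no library of the pair lay under 5%. The same libraries were compared there, the one high in COL1A2 included, and only the rest of the fit changed. At 10 µM that fit leaves 1 gallic acid library, so its counts cannot rank the doses. The 95% interval of the difference lay within 1 log2 unit either way for 10813 genes at 10 µM (59% of those tested), 12759 at 2 µM (69.6%) and 13137 at 0.4 µM (71.7%). For the remaining genes the data leave room for a difference of 2-fold or more.

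The 3 gallic acid libraries at 10 µM differed from benzoic acid to unequal extents. Against the benzoic acid mean, the 257 higher genes had a median log2 difference of 0.99 in replicate 1, 0.30 in replicate 2 and 0.74 in replicate 3. The 125 lower genes stood at −0.75, −0.37 and −0.58 in the same order. Replicate 2, with the mitochondrial share of 18.9%, was thus nearest to benzoic acid in both directions. In it 254 of the 257 and all 125 genes kept their sign. These genes were called from groups that include replicate 2, so that agreement was largely fixed by the selection. In 345 of the 382 genes the 3 libraries of one compound lay beyond all 3 of the other, against 24.9% of all genes tested. The same selection favours such separation, so it is no further support for the calls. The fit without the batch's libraries under a share of 5% leaves replicate 2 as the only gallic acid library at 10 µM, and 55 of its 106 genes were among the 382. The lone library is then assumed to vary like the other groups. With the log2 share as a covariate 415 genes differed, 251 of them shared.

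HMOX1 (ENSG00000100292), which encodes the inducible heme oxygenase that cleaves heme to biliverdin, iron and carbon monoxide, gave the clearest difference. Its level at 10 µM was 320, 330 and 288 CPM with gallic acid and 126, 127 and 116 CPM with benzoic acid, beside 123, 124 and 119 CPM with vehicle. All 3 gallic acid libraries were alike and far above the others, and the remaining 72 libraries of the batch ran from 75.1 to 172 CPM. The difference was 1.35 ± 0.15 log2 (SE, 2.54-fold, edgeR adjusted p = 1.24e-07). At 2 µM the levels were 116, 125 and 128 against 135, 123 and 98.1 CPM, and at 0.4 µM 128, 125 and 124 against 127, 127 and 120 CPM. Here the compounds overlapped, with differences of 0.05 log2 (95% interval −0.25 to 0.35) and 0.01 log2 (−0.29 to 0.31). The change of the difference from 0.4 to 10 µM passed its own test (1.34 ± 0.21 log2, edgeR adjusted p = 0.000963).

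SALL4 (ENSG00000101115), a zinc finger transcription factor of stem and embryonic cells, moved the other way. At 10 µM it stood at 2.50, 3.32 and 2.61 CPM with gallic acid and at 6.70, 6.95 and 7.07 CPM with benzoic acid. The groups were far apart, and vehicle was on the side of benzoic acid at 6.20, 5.82 and 6.19 CPM. SALL4 fell by 1.29 log2 with an SE of 0.15 (edgeR adjusted p = 1.24e-07). At 2 µM only gallic acid replicate 1 was low, at 3.90 CPM, while the other 5 libraries ran from 6.02 to 7.03 CPM, and the difference of −0.21 log2 did not pass. At 0.4 µM it was −0.13 log2 (95% interval −0.41 to 0.15).

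In all, 6 genes (0.0327% of those tested) changed their gallic against benzoic acid difference between 0.4 and 10 µM, and they are named here after their values were seen. Besides HMOX1 and SALL4 they were FICD, ZNF544, PLPP5 and BTNL9. FICD, the endoplasmic reticulum enzyme that attaches AMP to the chaperone BiP, stood at 11.4, 10.7 and 10.0 CPM with 10 µM gallic acid and at 5.73, 7.37 and 6 CPM with benzoic acid. The groups were separate, and the other 72 libraries ran from 5.41 to 9.37 CPM. FICD rose by 0.75 ± 0.11 log2 (edgeR adjusted p = 6.24e-05), whereas at 2 and 0.4 µM its differences were −0.07 and −0.16 log2. ZNF544, a zinc finger protein gene, stood at 12.8, 9.18 and 13 CPM against 18.9, 18.3 and 17.6 CPM, lowest in replicate 2. With gallic acid it was lower than with benzoic acid by 0.65 log2 (edgeR adjusted p = 0.000177). Vehicle lay between the compounds for ZNF544, at 15.2 to 15.7 CPM. PLPP5, a phospholipid phosphatase, stood at 21.7, 24.7 and 24.2 CPM against 17.7, 16.5 and 17.1 CPM, lowest in replicate 1, and rose by 0.46 log2 (adjusted p = 6.24e-05). Vehicle was at 17.6 to 18.2 CPM for this gene. All 72 libraries other than 10 µM gallic acid ran from 15.9 to 28.5 CPM, so other ingredients reached its level. BTNL9, a butyrophilin-like membrane protein gene, was low throughout, at 1.96, 2.29 and 2.24 against 1.12, 1.2 and 1.06 CPM, and rose by 0.94 log2 (adjusted p = 0.0269). Its difference at 10 µM lost the call in 5 of the 6 fits that left out 1 library of the 10 µM groups, while those of HMOX1, SALL4, FICD, ZNF544 and PLPP5 kept it in all 6. The change between doses was less stable. Of the 12 fits that left out 1 library of the 10 or 0.4 µM groups, HMOX1, SALL4 and FICD kept that call in all, ZNF544 in 7, BTNL9 in 3 and PLPP5 in 1. With no filter on low counts 1 gene kept it, HMOX1.

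**Figure D2:**
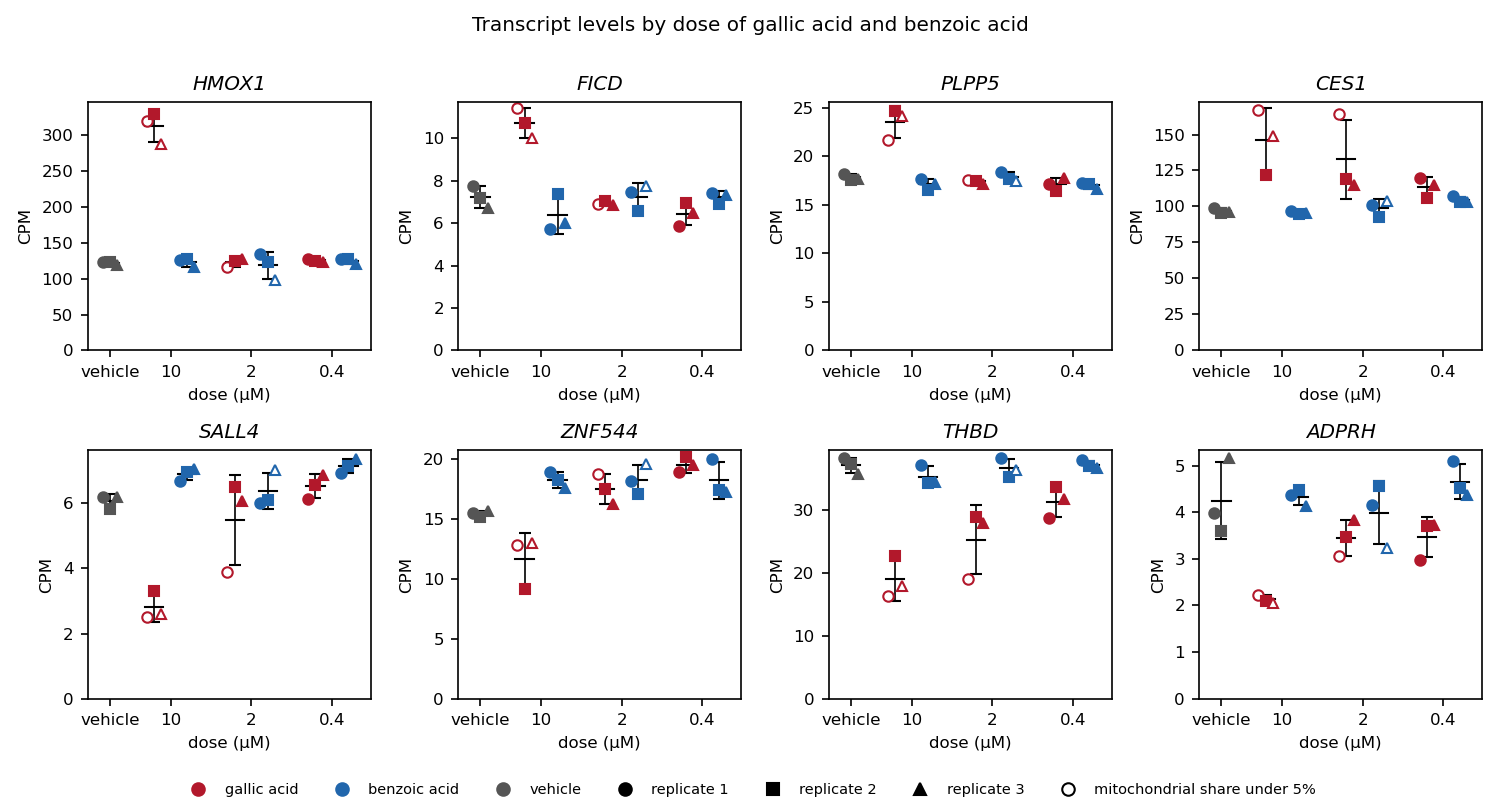
Level in CPM of 8 genes in every library of vehicle, gallic acid and benzoic acid, by dose in µM, with the mean and SD of 3 libraries in black and open symbols for libraries with a mitochondrial share under 5%. HMOX1 at 10 µM gallic acid is at 288 to 330 CPM in all 3 libraries and at vehicle's level at the lower doses, whereas THBD and CES1 are apart from benzoic acid at both 10 and 2 µM.

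THBD and CES1 were the genes that differed at both 10 and 2 µM. THBD (ENSG00000178726) encodes thrombomodulin, the membrane cofactor through which thrombin activates protein C. Its level with gallic acid was 16.2, 22.7 and 17.9 CPM at 10 µM, 19, 28.8 and 27.9 CPM at 2 µM and 28.7, 33.5 and 31.6 CPM at 0.4 µM. With benzoic acid it was 37.1, 34.2 and 34.3 CPM, then 38.2, 35.2 and 36.2 CPM, then 37.8, 36.9 and 36.6 CPM, and with vehicle 38.1, 37.3 and 35.7 CPM. Benzoic acid thus stayed at the vehicle level at every dose, while the 3 gallic acid libraries were below all of them at every dose. The differences were −0.89 ± 0.12 log2 at 10 µM (edgeR adjusted p = 6.34e-06), −0.53 ± 0.12 at 2 µM (adjusted p = 0.0167) and −0.25 at 0.4 µM, which did not pass (adjusted p = 0.297). In the 54 libraries of the other ingredients THBD ran from 26.6 to 50.6 CPM. The gallic acid libraries at 10 µM lay below that range and those at 0.4 µM inside it. CES1, a carboxylesterase that hydrolyses ester drugs and lipids, stood at 167, 122 and 149 CPM with gallic acid and 97.1, 94.8 and 95.5 CPM with benzoic acid at 10 µM. At 2 µM it was 164, 119 and 115 against 101, 92.8 and 104 CPM, with replicate 1 of gallic acid the highest. In the 54 libraries of the other ingredients CES1 ran from 74.4 to 160 CPM, which overlaps its levels with gallic acid. It rose by 0.61 ± 0.11 log2 at 10 µM (adjusted p = 0.00137) and by 0.42 ± 0.11 at 2 µM (adjusted p = 0.0422), and the difference at 0.4 µM was 0.12 log2 (95% interval −0.09 to 0.33). Without gallic acid replicate 1, the edgeR differences at 2 µM were −0.36 log2 for THBD (adjusted p = 0.102) and 0.25 for CES1 (adjusted p = 0.265), and CES1 lost its call at 10 µM as well (0.50 log2, adjusted p = 0.0856). Without benzoic acid replicate 1 at 2 µM they were −0.49 (adjusted p = 0.0534) and 0.45 log2 (adjusted p = 0.073). With all libraries but adjusted within 2 µM alone, edgeR called 0 genes, so neither THBD nor CES1 passed at that dose.

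The 8 largest rises at 10 µM among genes averaging 1 CPM or more with gallic acid included TCEB2, CRELD2 and TFF1. TCEB2, which encodes elongin B of the elongin and VHL ubiquitin ligase complexes, stood at 353, 73.3 and 262 CPM against 69.2, 58.7 and 55.8 CPM. TFF1, a secreted trefoil peptide, stood at 2.72, 1.07 and 2.33 CPM against 0.406, 0.463 and 0.858 CPM. In both genes gallic acid replicate 2 lay close to benzoic acid and replicates 1 and 3 well above it. TCEB2 rose by 1.91 ± 0.48 log2 (edgeR adjusted p = 0.0461) and TFF1 by 1.80 ± 0.35 (adjusted p = 0.00559). CALY (2.50 log2), CCER2 (2.05), SLC22A31 (1.92), BEX2 (1.78) and ETV2 (1.73) were at or under 4.57 CPM in every library of the comparison. Without gallic acid replicate 1, none of these 8 genes passed, and the differences of TCEB2 and TFF1 were 1.45 and 1.54 log2.

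The 8 largest falls included ITGB6 and GREM1. ITGB6, the integrin chain that releases active TGF-beta, stood at 0.435, 3.20 and 2.52 CPM against 5.33, 4.86 and 5.47 CPM, and fell by 1.32 log2 with an SE of 0.27 (edgeR adjusted p = 0.00828). GREM1, a secreted antagonist of bone morphogenetic proteins, stood at 2.77, 4.88 and 2.66 CPM against 7.31, 7.14 and 7.31 CPM and fell by 1.07 log2 (adjusted p = 0.00599). In both, replicate 2 was the gallic acid library nearest to benzoic acid. ADPRH, the hydrolase that removes ADP-ribose from arginine, showed no such spread, at 2.23, 2.09 and 2.06 CPM against 4.36, 4.48 and 4.13 CPM, and fell by 1.02 ± 0.15 log2 (adjusted p = 7.86e-05). NSUN7 (−1.43 log2), SALL4, C2orf70 (−1.20), THAP2 (−1.17) and GABRQ (−1.07) completed the group. Without gallic acid replicate 1, 6 of the 8 lost the call, among them ITGB6 (−0.87 log2, adjusted p = 0.198) and GREM1 (−0.94 log2, adjusted p = 0.184), and SALL4 and ADPRH kept it.

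The unfolded protein response was the gene list with the most members past the threshold. Of its 18 measured members, 12 were higher with gallic acid at 10 µM and 0 lower, beside 1.4% and 0.682% of all genes tested. The list's median difference was 0.77 log2, against 0.01 over all genes. At 2 and 0.4 µM edgeR called 0 members (3 and 2 at an unadjusted p under 0.05, and DESeq2 0 and 0), and the medians were 0.12 and 0.14 log2. Over all 18324 genes, 1551 and 873 had such an unadjusted p. HSPA5, which encodes BiP, the main chaperone of the endoplasmic reticulum, stood at 1410, 907 and 1210 CPM with gallic acid and 712, 657 and 615 CPM with benzoic acid. Every gallic acid library was above every benzoic acid one, and replicate 2 was the lowest of its group. HSPA5 rose by 0.83 ± 0.20 log2 (edgeR adjusted p = 0.0378). HSP90B1, the HSP90 of the endoplasmic reticulum (GRP94), stood at 2940, 1170 and 2110 CPM against 956, 803 and 886 CPM and rose by 1.23 log2 (adjusted p = 0.00599). CALR, the lectin chaperone calreticulin, stood at 1410, 723 and 999 CPM against 552, 506 and 501 CPM and rose by 1.01 log2 (adjusted p = 0.002). In these chaperones too, replicate 2 was the gallic acid library nearest to benzoic acid.

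The secreted stress proteins CRELD2 and MANF followed the chaperones. CRELD2 stood at 92.6, 21.6 and 69.6 CPM against 19.1, 15.7 and 17.2 CPM and rose by 1.82 ± 0.45 log2 (edgeR adjusted p = 0.0418). Its level was not particular to 10 µM gallic acid. The other 72 libraries of the batch ran from 14.3 to 73.1 CPM, and benzoic acid over all doses reached 41.1 CPM. MANF stood at 109, 53.7 and 72.9 CPM against 39.3, 36.7 and 34.1 CPM and rose by 1.10 ± 0.18 log2 (adjusted p = 0.000611). Some members varied less between the gallic acid libraries. DNAJB9, a BiP cochaperone, stood at 17.8, 16.3 and 18.2 CPM against 10.3, 9.57 and 9.84 CPM, and CANX, the membrane lectin calnexin, at 1050, 1110 and 1100 against 838, 783 and 795 CPM. They rose by 0.82 ± 0.14 log2 (adjusted p = 0.00137) and 0.43 log2 (adjusted p = 0.0458), with replicate 2 level with the other gallic acid libraries. HYOU1 (0.94 log2), XBP1 (0.95), PDIA4 (0.73), DNAJB11 (0.66) and PDIA6 (0.60) made up the 12. SDF2L1 (1.71 log2, adjusted p = 0.0625), HERPUD1 (0.37), DNAJC3 (0.04), SEL1L (−0.24), EDEM1 (−0.35) and SEC61B (−0.43) did not pass, and the last 3 belong to the degradation and translocation machinery of the endoplasmic reticulum.

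The count of 12 changed with the libraries that stood apart. Without those under a mitochondrial share of 5%, 6 members passed (DNAJB9, PDIA4, HYOU1, HERPUD1, MANF and CANX) and the median was 0.42 log2. In that fit HSPA5 stood at 0.46 log2 (edgeR adjusted p = 0.233) and CRELD2 at 0.32 (adjusted p = 0.603). With the share as a covariate 13 passed, beside 415 genes in all. Without gallic acid replicate 1, 1 member passed beside 25 genes in all, and without replicate 2, 13 passed beside 4484. Fitted on the 18 libraries of the pair alone edgeR called 0 members beside 4 genes in all. When those high in COL1A2 were also left out it called 2 members beside 29 genes.

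**Figure D3:**
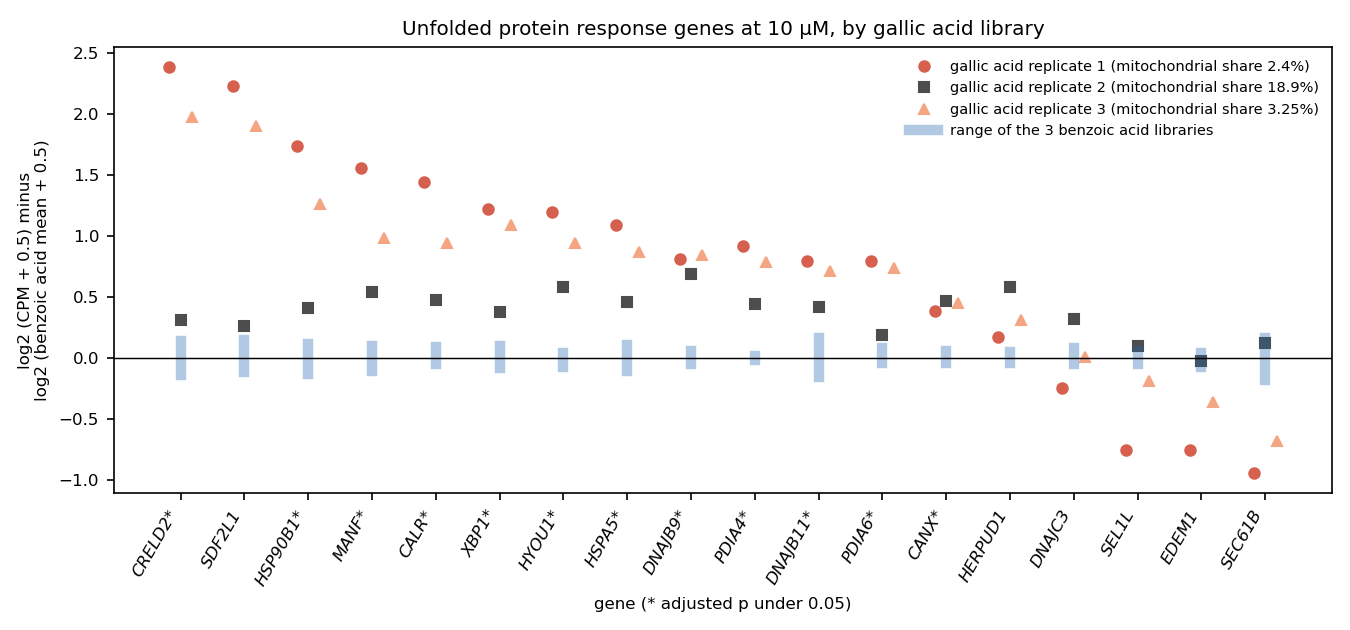
Log2 difference of each gallic acid library at 10 µM from the benzoic acid mean, on log2(CPM + 0.5), for the 18 unfolded protein response genes, with the range of the 3 benzoic acid libraries in blue and stars on the 12 genes past the threshold. CRELD2 spreads from replicate 2, near the blue range, to replicate 1, whereas DNAJB9 and CANX sit together in all 3 libraries.

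Chaperone genes of this list are known to share a promoter element, the endoplasmic reticulum stress response element, to which NF-Y and ATF6 bind. Its letters, CCAAT and CCACG with 9 bases of any kind between them, were searched on both strands in the 250 bases before each annotated start in RefSeq (build GRCh38.p14). All 18 members matched a RefSeq gene by symbol. The element was found in 7 of them (CALR, CANX, CRELD2, HSP90B1, HSPA5, PDIA6 and XBP1), and all 7 were among the 12 genes past the threshold. Over all promoters, 26 of 35116 windows (0.074%) and 25 of 27305 genes (0.0916%) held it. A match describes these letters and shows no binding. The element is known from such chaperone genes, so its frequency in the list follows from the choice of list and is no result of these data. The 250 bases of 4 members are printed 5′ to 3′ because they carry the element and belong to genes whose values are given above. They lie at chr22:49918384-49918633 (CRELD2, plus strand), chr9:125241344-125241593 (HSPA5, minus strand), chr12:103930160-103930409 (HSP90B1, plus strand) and chr19:12938359-12938608 (CALR, plus strand). Capitals mark the element, which begins with CGTGG and ends with ATTGG where it lies on the opposite strand.
CRELD2: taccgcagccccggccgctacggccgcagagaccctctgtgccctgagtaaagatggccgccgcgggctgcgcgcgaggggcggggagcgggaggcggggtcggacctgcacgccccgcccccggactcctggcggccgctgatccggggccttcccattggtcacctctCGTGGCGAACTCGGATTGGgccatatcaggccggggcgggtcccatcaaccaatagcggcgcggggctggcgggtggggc
HSPA5: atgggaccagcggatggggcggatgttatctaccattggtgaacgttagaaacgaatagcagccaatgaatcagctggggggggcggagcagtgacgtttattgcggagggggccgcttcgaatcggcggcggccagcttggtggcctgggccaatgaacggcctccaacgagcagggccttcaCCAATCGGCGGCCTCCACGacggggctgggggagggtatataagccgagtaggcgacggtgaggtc
HSP90B1: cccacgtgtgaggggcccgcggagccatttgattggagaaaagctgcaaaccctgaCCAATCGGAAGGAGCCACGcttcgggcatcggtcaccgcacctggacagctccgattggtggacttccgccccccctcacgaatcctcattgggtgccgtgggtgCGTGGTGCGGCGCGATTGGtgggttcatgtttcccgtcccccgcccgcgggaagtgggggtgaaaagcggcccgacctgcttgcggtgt
CALR: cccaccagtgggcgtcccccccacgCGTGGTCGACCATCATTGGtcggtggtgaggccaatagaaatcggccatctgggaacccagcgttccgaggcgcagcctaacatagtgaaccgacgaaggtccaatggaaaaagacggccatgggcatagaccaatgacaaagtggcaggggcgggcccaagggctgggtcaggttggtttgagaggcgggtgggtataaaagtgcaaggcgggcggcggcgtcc
HSP90B1 held the element at 2 places, once in each orientation, and the other 3 promoters held it once.

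Among genes that respond to oxidants, HMOX1 was the only NRF2 target past edgeR's threshold. Of 28 NRF2 targets edgeR called this 1 at 10 µM, beside 1.4% higher and 0.682% lower among all genes tested. DESeq2 called 5, all higher, beside 564 higher and 299 lower among all genes tested. At an unadjusted p under 0.05, 13 were higher and 1 lower, beside 5730 of 18324 genes in either direction. The list's median was 0.20 log2. NQO1, the quinone reductase often used to read NRF2 activity, stood at 2270, 1580 and 2040 CPM against 1520, 1540 and 1490 CPM, with replicate 2 close to benzoic acid. Its difference of 0.37 log2 (95% interval 0.13 to 0.61) did not pass (edgeR adjusted p = 0.121). TXNRD1, thioredoxin reductase, stood at 1310, 1870 and 1730 CPM against 1900, 2000 and 1980 CPM, a difference of −0.26 log2 (−0.53 to 0.01). Without the libraries under a 5% share, which leaves replicate 2 as the only gallic acid library, the median was 0.04. Of 16 genes that handle superoxide and peroxide 2 were higher (6 higher and 1 lower at an unadjusted p under 0.05). SOD1, copper and zinc superoxide dismutase, stood at 368, 135 and 269 CPM against 149, 137 and 127 CPM, and GPX4, which reduces lipid peroxides, at 255, 142 and 172 CPM against 130, 122 and 118 CPM. Replicate 2 was the lowest gallic acid library in both, inside the benzoic acid range for SOD1 and above it for GPX4. The differences were 0.90 log2 (adjusted p = 0.0378) and 0.62 log2 (adjusted p = 0.0435), and without the libraries under a 5% share they were −0.03 and 0.21 log2.

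Of 12 iron-handling genes, HMOX1 rose and FBXL5 fell, beside 1.4% higher and 0.682% lower among all genes tested. FBXL5, the iron-sensing subunit of the ligase that degrades iron regulatory protein 2, stood at 21.4, 24 and 22.4 CPM against 30.6, 30.2 and 29.9 CPM, lower in every gallic acid library. It fell by 0.42 log2 with an SE of 0.08 (edgeR adjusted p = 0.00522), and by 0.39 log2 without gallic acid replicate 1 (adjusted p = 0.124). TFRC, the transferrin receptor, stood at 186, 335 and 268 CPM against 275, 289 and 293 CPM (−0.12 log2, 95% interval −0.50 to 0.26). Of 14 tested genes for conjugation and transport of aromatic acids and phenols, edgeR and DESeq2 called 0 at 10 µM, and 4 were higher at an unadjusted p under 0.05. Over all genes tested 5730 of 18324 had such a p, in either direction. The monocarboxylate carrier SLC16A1 stood at 71.4, 68.8 and 75.5 CPM against 69.7, 67.1 and 68 CPM (0.07 log2, 95% interval −0.10 to 0.25). Of 7 aryl hydrocarbon receptor targets both tools called 0 (2 at an unadjusted p under 0.05), with CYP1B1 at 73.5, 73.5 and 71.6 CPM against 86.3, 80.6 and 82.3 CPM (−0.19 log2, adjusted p = 0.418) and CYP1A1 at or under 0.543 CPM in all 6 libraries.

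Other stress and signalling lists held few genes past the threshold at 10 µM. Over all genes tested 1.4% were higher and 0.682% lower, so 1 call in a list of this size says little about the list. Of 25 ATF4 targets, 2 rose and 1 fell. The amino acid transporter SLC7A5 stood at 1810, 2760 and 2110 CPM against 2910, 3150 and 3090 CPM and fell by 0.45 log2 (edgeR adjusted p = 0.035), while alanyl-tRNA synthetase AARS rose by 0.26 log2 (adjusted p = 0.0403) and the serine synthesis enzyme PHGDH by 0.79 log2 (adjusted p = 0.0433). DDIT3, which encodes the apoptosis regulator CHOP, did not pass (0.63 log2, adjusted p = 0.13). In 4 lists 1 member rose. These were EGLN3, a HIF prolyl hydroxylase (0.57 log2), among 28 hypoxia targets, the cytokine GDF15 (0.71) among 25 p53 targets, the chemokine CXCL2 (0.74) among 16 NF-kB targets and IER3 (0.52) among 21 immediate early genes. CA9 (0.91 log2, adjusted p = 0.0912), NDRG1 (0.28), CDKN1A (−0.13) and HSPA1A (0.43) did not pass, and edgeR and DESeq2 called 0 of 19 heat shock genes (6 at an unadjusted p under 0.05). For all genes tested the unadjusted count was 5730 of 18324. Of 22 TGF-beta targets ITGB6 fell, and the median was −0.31 log2. Without gallic acid replicate 1, SLC7A5, AARS, EGLN3, GDF15, CXCL2, IER3 and ITGB6 did not pass. Without the libraries under a 5% share PHGDH lost its call, as did SLC7A5 and AARS.

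Growth and organelle lists held 0 genes past edgeR's threshold at 10 µM, beside 2.08% of all genes tested. At an unadjusted p under 0.05, 5730 of all 18324 genes stood at this dose, in either direction, and DESeq2 called 863 genes in all. A list count near either share says nothing about the list. The 40 mitotic genes had a median of −0.30 log2, with 14 lower and 1 higher at an unadjusted p under 0.05 and 1 called by DESeq2, lower. AURKB, the kinase of the chromosomal passenger complex, stood at 105, 82.9 and 88.9 CPM against 90.1, 78.7 and 83.2 CPM, a difference of 0.13 log2 (95% interval −0.06 to 0.32). MKI67, the proliferation marker Ki-67, stood at 192, 664 and 294 CPM against 628, 662 and 640 CPM, low in replicates 1 and 3 and level with benzoic acid in replicate 2. Its difference of −0.75 log2 had an interval of −1.52 to 0.03. Ribosome biogenesis (23 genes, median 0.52 log2), cytosolic ribosomal proteins (46, 0.38) and nuclear-encoded respiratory chain subunits (33, 0.44) lay above 0. In these lists 13, 22 and 18 genes were higher at an unadjusted p under 0.05, and DESeq2 called 1, 5 and 5. Fatty acid synthesis (13, −0.31) and the 13 mitochondrially encoded genes (−0.88) lay below it, with 5 and 0 genes lower at an unadjusted p under 0.05 and 2 and 0 called by DESeq2. Without the libraries under a 5% share these medians were −0.12 for mitosis, −0.06, 0.03 and −0.04 for the 3 lists above 0, −0.06 for fatty acid synthesis and 0.41 for the mitochondrially encoded genes. Medians were within 0.1 of 0 for metallothioneins (4 genes), interferon response (18), cholesterol synthesis (25), DNA replication (40) and histone genes (20), where edgeR called 0 and 1, 3, 10, 15 and 5 genes had an unadjusted p under 0.05 (DESeq2 called 1, 1, 1, 4 and 0). At 2 and 0.4 µM edgeR called 0 members of any of the 24 lists, where 57 and 22 entries, some genes standing in more than 1 list, had an unadjusted p under 0.05 and DESeq2 called 4 and 0. Over all 18324 genes, 1551 and 873 had such a p at these doses, and DESeq2 called 64 and 47.

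**Figure D4:**
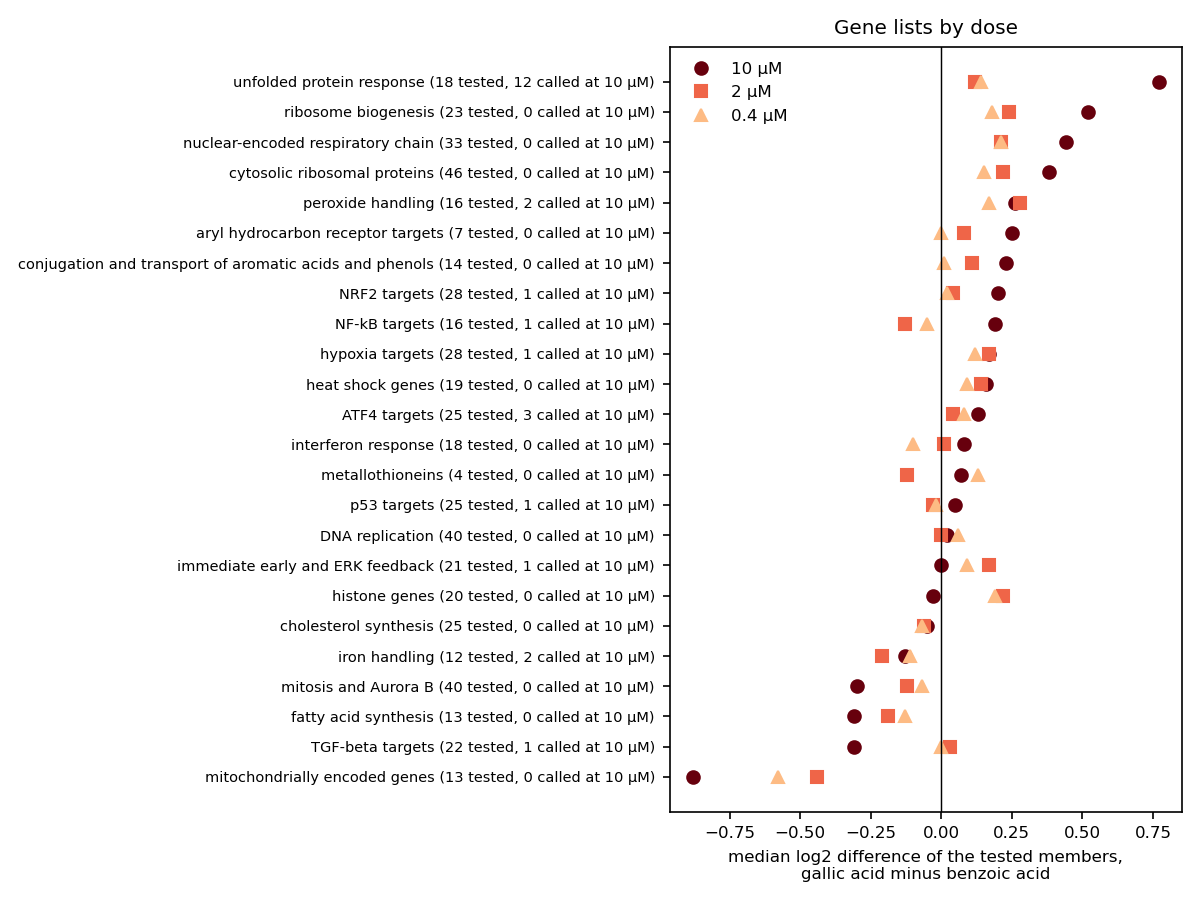
Median log2 difference between gallic and benzoic acid over the tested members of each of 24 gene lists, with 1 symbol per dose. The unfolded protein response lies at 0.77 at 10 µM and at 0.12 and 0.14 at the lower doses, and the mitochondrially encoded genes lie below 0 at all 3 doses.

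At the lower doses the calls included genes that were high in the libraries with COL1A2. At 2 µM these were COL1A2 itself, INHBA, an activin chain (89, 0.234 and 0.211 CPM against 0.252, 0.291 and 0.360) and CREB3L1, a membrane-bound transcription factor (44.7, 3.55 and 3.88 CPM against 1.89, 2.23 and 2.70). In each, replicate 1 of gallic acid stood far above all other libraries. At 0.4 µM replicate 1 of gallic acid had INHBA at 72.8 CPM, against 0.0858 to 0.38 CPM in the other 5 libraries. RN7SK, a small nuclear RNA that holds back transcription elongation, stood at 1140 CPM in that library and at or under 0.777 CPM in the other 5. Without the batch's libraries above 100 CPM of COL1A2, 7 genes differed at 2 µM and 3 at 0.4 µM, of which 2 and 2 were among the 14 and the 7. In that fit INHBA was at −0.43 and −0.32 log2 at the 2 doses. Only 9 of the 14 genes and 2 of the 7 had groups that did not overlap, which held for 6.29% and 23.4% of all genes tested.

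ZNF70, CXorf38, CYB5R2 and GOLGA8S were also among the 14 genes at 2 µM. ZNF70, a zinc finger protein gene, stood at 6.95, 5.79 and 6.32 CPM against 4.63, 4.85 and 4.01 CPM and rose by 0.50 log2 (edgeR adjusted p = 0.0418). CXorf38 stood at 15.6, 18.6 and 19.9 CPM against 21.5, 22.8 and 22.4 CPM and fell by 0.30 log2 (adjusted p = 0.0461). CYB5R2, a cytochrome b5 reductase, stood at 2.92, 2.57 and 2.19 CPM against 4.37, 3.25 and 3.42 CPM and fell by 0.53 log2 (adjusted p = 0.0468). GOLGA8S stood at 2.53, 2.48 and 2.53 CPM against 5.43, 3.59 and 3.47 CPM, a difference of −0.73 log2 (adjusted p = 0.0486), which is uncertain because golgin genes of this family have near-identical copies. The groups did not overlap in these genes. These calls rested on single libraries and on the adjustment over the 3 doses together. Adjusted within 2 µM alone, edgeR called 0 genes. Of the 6 fits that left out 1 library, ZNF70 and CXorf38 lost the call in 5, and CYB5R2 and GOLGA8S in 4. In these 6 fits the largest adjusted p from edgeR was 0.13 for ZNF70 (0.42 log2, without benzoic acid replicate 3) and 0.241 for CXorf38 (−0.20, without gallic acid replicate 1). Without benzoic acid replicate 1 it was 0.238 for CYB5R2 (−0.38) and 0.273 for GOLGA8S (−0.48). At 0.4 µM the 2 genes with separate groups that passed were an antisense transcript and a pseudogene. The lower genes with the smallest p after these did not pass, and were PRRC1 (−0.25 log2, adjusted p = 0.112), the RNA phosphatase DUSP11 (−0.25, adjusted p = 0.132) and HSPA12B (−0.44, adjusted p = 0.134).

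The genes called at 10 µM leaned the same way at the lower doses, in other libraries. Of the 257 higher genes 91.8% were above 0 at 2 µM and 89.1% at 0.4 µM, with medians of 0.30 and 0.23 log2 against 0.77 at 10 µM. Of the 125 lower genes 95.2% and 88% were below 0, with medians of −0.21 and −0.13 log2 against −0.57. Among all genes tested that were above 0 at 10 µM, 73.9% and 74.3% shared the sign at the lower doses, and among those below 0, 76.4% and 73.8% did. The mean mitochondrial share was also lower with gallic acid at each dose, by 6.93, 2.61 and 4.10 percentage points.

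Each compound was set beside the same 3 vehicle libraries, so these counts share their reference. Gallic acid against vehicle gave 2469 genes at 10 µM (13.5% of those tested), of which 1560 were higher (8.51%) and 909 lower (4.96%). At 2 µM it gave 112 (0.611%), 60 higher (0.327%) and 52 lower (0.284%), and at 0.4 µM 13 (0.0709%), 4 higher (0.0218%) and 9 lower (0.0491%). These counts moved with single libraries. At 10 µM leaving out 1 vehicle library gave 740 to 791 genes, gallic acid replicate 1 136, replicate 2 7312 and replicate 3 753. At 2 µM leaving out 1 vehicle library gave 7 to 19, and gallic acid replicates 1, 2 and 3 gave 7, 369 and 2968. Benzoic acid gave 5 (0.0273%), 4 (0.0218%) and 6 (0.0327%). At each dose 1 of these was higher (0.00546%), and 4 (0.0218%), 3 (0.0164%) and 5 (0.0273%) were lower. HMOX1 was at 1.36 log2 with 10 µM gallic acid (edgeR adjusted p = 1.84e-08) and at 0.01 log2 with benzoic acid (95% interval −0.29 to 0.31). THBD was at −0.96, −0.55 and −0.24 log2 with gallic acid over falling doses, and at −0.07, −0.02 and 0.003 with benzoic acid.

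The genes called with benzoic acid are named after their values were seen. They were the splicing kinase CLK1, the transcription factors KLF2 and KLF6, and CTGF and AMOTL2, which are targets of the YAP coactivator, with KLF6 called at 10 and 0.4 µM and LRP2BP added at 0.4 µM. CLK1 stood at 13.1, 15.9 and 17.1 CPM with vehicle, at 22.9 to 29.7 CPM in the 9 benzoic acid libraries and at 26.2 to 34 CPM in the 9 gallic acid libraries. KLF2 stood at 24, 20.5 and 20.7 CPM with vehicle, at 10.1 to 13.2 CPM with benzoic acid and at 10.9 to 14.5 CPM with gallic acid. The compounds overlapped and vehicle lay outside both. Over all 72 treated libraries of the batch CLK1 ran from 22.9 to 37.8 CPM and KLF2 from 8.78 to 20.2 CPM. CTGF ran from 20.8 to 34.8 CPM and KLF6 from 43.3 to 71.6 CPM. The 3 vehicle libraries lay outside these ranges, with CTGF at 36.7 to 42.6 CPM and KLF6 at 72.8 to 82.2 CPM. For KLF2 and KLF6 the gap was narrow, as the lowest vehicle libraries were at 20.5 and 72.8 CPM. LRP2BP overlapped, at 0.505 to 1.23 CPM in treated libraries and 1.13 to 1.98 CPM with vehicle. For AMOTL2 the treated libraries ran from 27.1 to 71.1 CPM and reached the vehicle range of 67.8 to 72.2 CPM. Between gallic and benzoic acid the difference of CLK1 at 10, 2 and 0.4 µM was 0.16, 0.05 and 0.12 log2, with 95% intervals of −0.03 to 0.35, −0.14 to 0.24 and −0.08 to 0.31. That of KLF2 was 0.12 (−0.18 to 0.43), 0.05 (−0.26 to 0.36) and −0.06 log2 (−0.36 to 0.25).

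Catechin against albiflorin crosses the same first digits of the library codes without either acid, and it serves as a second comparison of libraries made at the same doses. It gave 1, 1 and 2 genes at 10, 2 and 0.4 µM (0.00546%, 0.00546% and 0.0109% of those tested). At an unadjusted p under 0.05 the counts were 1679, 6332 and 4021, of which the second is above the 5730 of gallic against benzoic acid at 10 µM. Adjusted within each dose alone 1, 1 and 114 genes passed. DESeq2 called 73, 202 and 262, and without the libraries high in COL1A2 edgeR called 61 at 2 µM and 58 at 0.4 µM. At 10 µM the difference of gallic from benzoic acid was itself different from that of catechin from albiflorin for 10 genes (0.0546%), which are named after their values were seen. HMOX1 was at 312.7 and 123 CPM (means of 3) with gallic and benzoic acid and at 126.7 and 122.9 CPM with catechin and albiflorin (1.302 ± 0.21 log2, edgeR adjusted p = 0.00132). SALL4 was at 2.81 and 6.90 CPM and at 6.42 and 6.77 CPM (−1.22 ± 0.20 log2, adjusted p = 0.00132). FICD, ZNF544, ADPRH, THBD, TIMP3, ATOH8, ITGB6 and FAM155B were the others. TIMP3, an inhibitor of matrix metalloproteinases, stood at 6.41, 5.37 and 4.62 CPM with gallic acid and 8.88, 8.88 and 8.78 CPM with benzoic acid, and ATOH8, a transcription factor, at 28.2, 21.1 and 24.6 CPM against 15.9, 15.2 and 15.2 CPM. Catechin replicate 2 at 10 µM was itself high in COL1A2, and without such libraries 5 genes passed. Of the 257 higher genes 93% also lay above 0 in catechin against albiflorin at 10 µM, with a median of 0.27 log2, and of the 125 lower genes 82.4% lay below 0 (−0.12), beside 76.1% and 73.4% of all genes with those signs.

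The count at 10 µM depended on single libraries. Leaving out gallic acid replicate 1 gave 25 genes, replicate 2 4484 and replicate 3 69, and leaving out benzoic acid replicates 1, 2 and 3 gave 87, 44 and 61. Of the 37 genes that passed at 10 µM and were followed through the alternative fits, 7 kept their call whichever of these 6 libraries was left out. They were HMOX1, SALL4, FICD, ZNF544, PLPP5, THBD and ADPRH. PHGDH and the members of the unfolded protein response other than CRELD2, MANF and HYOU1 were not among the 37. HMOX1 and SALL4 also kept the call in all 17 alternative analyses run for this comparison.

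**Figure D5:**
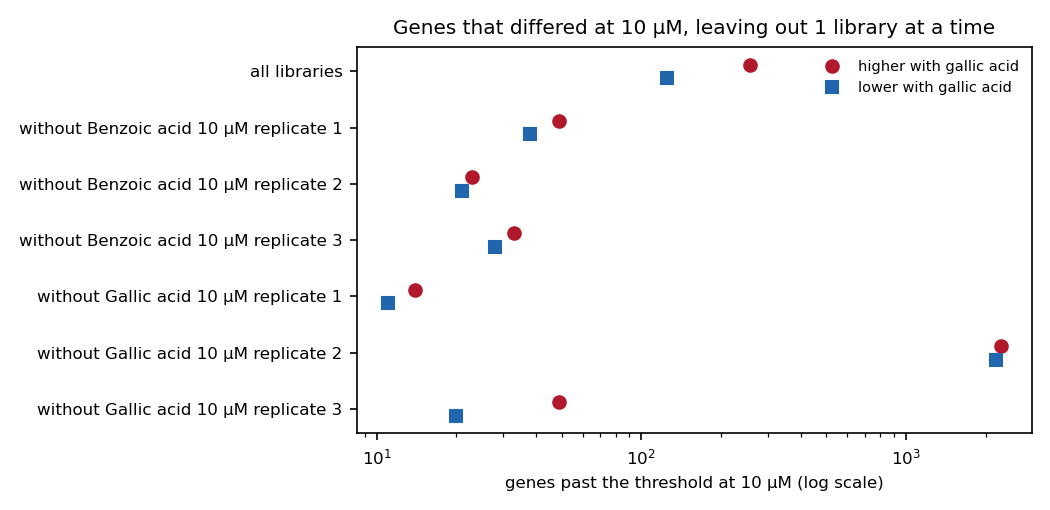
Number of genes past the threshold at 10 µM (log axis), higher and lower with gallic acid, from all libraries and with 1 library of the 10 µM groups left out at a time. The count falls to 25 genes in all without gallic acid replicate 1 and grows to 4484 without replicate 2.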

How the data were processed

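RNA from A549 cells was made into libraries with the MGIEasy RNA Directional kit, per the labels. The submitters' processing notes name FastQC, Trim Galore, STAR and RSEM 1.3.3 with the builds GRCh38 and hg38. The authors deposited expected counts per gene for all libraries in 1 table, of which 89.2% of values were whole numbers. The strand setting of the counting is not given in the sources used here, so a gene and its antisense partner cannot be told apart. Groups, replicates and doses came from the titles.

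Expected counts were rounded, and the 75 libraries of the second batch were fitted together with edgeR 4.0.16 in R 4.3.3 (quasi-likelihood test, TMM scaling, filterByExpr, 25 groups, 50 residual degrees of freedom). Of 60675 genes, 18324 were tested. The 3 gallic against benzoic acid comparisons, 1 per dose, were adjusted together by the Benjamini-Hochberg method at 0.05, as were the 3 of catechin against albiflorin, and each other comparison was adjusted alone. Values per library are CPM after TMM scaling. Of 75 replicate pairs, 0 held identical values. The script was tested on simulated data. Alternatives included DESeq2 1.42.0 and leaving out each library in turn. Leaving out libraries under a mitochondrial share of 5%, and that share as a covariate, were chosen after seeing the data.

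The pair and the gene lists were chosen with earlier results of these data known. Genes were named by a rule. It took the 8 largest rises and falls at 10 µM and the 5 at each lower dose, with at least 1 CPM in the higher group and no overlap between groups, leaving out clone names, pseudogenes and repeated symbols. Where none qualified, the 3 with the smallest p were named. Up to 2 called genes per list and a fixed set of stress, iron, metabolism and growth genes were added. One gene of that set is not reported here. PHGDH, INHBA at 2 µM and the further members of the unfolded protein response were named outside it after their values were seen. Promoter windows came from RefSeq (GRCh38.p14). Figures were drawn with matplotlib 3.10.9.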

Additional observations from a re-analysis of the deposited data

Results flagged for a closer look

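These genes stand out because the difference between gallic and benzoic acid was itself different between doses or between pairs of compounds, by an edgeR interaction test with an adjusted p under 0.05. Between 0.4 and 10 µM the difference of gallic from benzoic acid changed by 1.34 log2 for HMOX1 (adjusted p = 0.000963), −1.16 for SALL4 and 0.91 for FICD (both 0.00242), −0.75 for ZNF544 (0.0114), 1.52 for BTNL9 (0.0477) and 0.45 for PLPP5 (0.0492). For BTNL9 the change has parts of both signs, 0.94 log2 at 10 µM and −0.57 at 0.4 µM, where the difference did not pass.

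At 10 µM the difference of gallic from benzoic acid departed from that of catechin from albiflorin by 1.302 log2 for HMOX1 and −1.22 for SALL4 (both adjusted p = 0.00132). It departed by −0.75 for ZNF544 (0.0157), and by −1.07 for ADPRH, −0.83 for THBD and 0.79 for FICD (all 0.0178). The remaining values were −0.86 for TIMP3 (0.0234), 0.81 for ATOH8 (0.0356), −1.72 for ITGB6 and 0.76 for FAM155B (both 0.0499). HMOX1 was the only gene of both lists that stayed past the threshold of each interaction test in every alternative run.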

How the results depend on the processing

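The count of differing genes depended on the test and on single libraries. With DESeq2 the pair gave 863, 64 and 47 genes at 10, 2 and 0.4 µM, gallic acid against vehicle 593 at 2 µM and 62 at 0.4 µM, benzoic acid against vehicle 16, 21 and 19, the 10 against 0.4 µM interaction 16, catechin against albiflorin 73, 202 and 262, and the difference between the pairs 34. Without a filter on low counts these were 113 at 10 µM and 9 at 2 µM for the pair, 1088, 26 and 5 for gallic acid against vehicle, 3, 2 and 2 for benzoic acid, 1 for the dose interaction, 6 for catechin against albiflorin at 0.4 µM and 1 for the difference between the pairs. Without the libraries above 100 CPM of COL1A2 the pair gave 719, 7 and 3 genes, gallic acid against vehicle 13 at 2 µM, benzoic acid against vehicle 7 at 2 µM, catechin against albiflorin 61 at 2 µM and 58 at 0.4 µM, and the difference between the pairs 5. Fitted on the 18 libraries alone the pair gave 4, 0 and 0 genes with edgeR and 0 called members of the unfolded protein response, and on those without high COL1A2 29, 1 and 0 genes and 2 members. Adjusted within each dose the counts were 1594, 0 and 0. Without the libraries under a mitochondrial share of 5% the pair gave 106 genes at 10 µM and 99 at 0.4 µM, with 6 members of the unfolded protein response, 54 genes for the dose interaction and 48 for the difference between the pairs. With that share as a covariate the counts were 29 at 2 µM, 29 for the dose interaction and 59 for the difference between the pairs. DESeq2's size factors gave 370, 12 and 7 genes and the robust fit 379, 14 and 7.

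Leaving out 1 library at a time, the pair ran from 25 to 4484 genes at 10 µM, 1 to 126 at 2 µM and 0 to 36 at 0.4 µM, and the unfolded protein response from 1 to 13 members. Gallic acid against vehicle ran from 136 to 7312, 7 to 2968 and 4 to 10, benzoic acid from 2 to 6, 2 to 4 and 1 to 6, and catechin against albiflorin from 0 to 1, 1 to 15 and 0 to 19. The dose interaction ran from 3 to 14 genes and the difference between the pairs from 3 to 15. A group left with 1 library is assumed to vary like the others. The cause of these changes was not tested.

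With the replicate block the pair gave 369 genes at 10 µM, 9 at 2 µM and 1 at 0.4 µM. Same-numbered libraries had correlations of deviations of 0.166, 0.152 and −0.002 at 10 µM, so the numbers were not taken to pair the samples.

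Signs turned for 4 genes. Leaving out 1 library at a time, INHBA ran from −0.421 to 7.206 log2 at 2 µM and from −0.314 to 7.364 at 0.4 µM, COL1A2 at 0.4 µM from −0.974 to 12.624 and RN7SK from −0.665 to 9.692, each lowest without gallic acid replicate 1. INHBA was at −0.434 log2 at 2 µM without the libraries high in COL1A2 and −0.281 without those under a 5% share, and at −0.324 at 0.4 µM without the former. At 0.4 µM, also without these, COL1A2 was at −0.978 and RN7SK at −0.641 (−0.641 also when the pair was fitted alone without such libraries). SOD1 at 10 µM was at −0.028 without the libraries under a 5% share. Of the genes followed through all alternatives, 2 of 37 kept the call at 10 µM, 0 of 9 at 2 µM and 0 of 3 at 0.4 µM. PHGDH and most members of the unfolded protein response were not among the 37. Depth limits low genes: CYP1A1, at or under 0.543 CPM, had a 95% interval of −0.97 to 0.98 log2 at 10 µM.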
